A study of Mus musculus with 24 samples.

Results

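The BCL2 family sets whether a cell survives, and 9 of its genes were followed here in mouse CD4+ T cells with and without BAF180, a subunit of the PBAF form of the SWI/SNF chromatin remodelling enzyme encoded by Pbrm1. The genes were Bcl2, Bcl2l1, Bcl2l2, Mcl1, Bax, Bak1, Bcl2l11, Bad and Bid, chosen by symbol among the 17871 genes of the array, and every probe carrying one of these symbols was taken. They were measured on 24 Illumina MouseRef-8 v2 BeadChips, 3 per group, labelled replicates A, B and C. Each value below is a background-corrected, quantile-normalized log2 intensity of one probe, so levels of different probes are not set against each other, and a difference of 1 is a 2-fold change.

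All groups were CD4+ T cells of 4 to 6 week old mice, taken from spleen and lymph nodes as CD4+CD62L+ cells at a stated purity of 95%, and each state was measured in WT and BAF180-deficient cells. Resting Naïve cells had no culture. Stimulated Naïve cells were kept for 24 h on plates coated with 1 µg/ml of anti-CD3, together with 2 µg/ml of anti-CD28. Resting Th2 cells had been differentiated on plates with the same amounts of both antibodies, in 10 ng/ml of IL-4 and 10 µg/ml of anti-IFN-gamma, and were expanded in 100 U/ml of IL-2. Stimulated Th2 cells were in addition given 50 ng/ml of PMA with 500 ng/ml of ionomycin for 1.5 h. In the mice described in the methods a floxed exon of Pbrm1 is deleted by CD4-Cre, which acts from the thymus onward and in every CD4-expressing lineage. The labels call the strain Balb/c, whereas the methods describe a mixed background. The labels do not say which arrays share a mouse, so the p-values measure the spread between these arrays.

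Proteins of this family meet at the outer membrane of the mitochondrion. Bax and Bak1 are the executioners, which form pores that release cytochrome c, while Bcl2, Bcl2l1 (Bcl-xL), Bcl2l2 (Bcl-w) and Mcl1 hold them in check. The BH3-only proteins Bcl2l11 (Bim), Bad and Bid carry death signals into the family. In T cells, survival of Naïve cells depends on IL-7 and Bcl2, antigen receptor and CD28 signals are known to induce Bcl-xL, and Bim is required for the death of T cells after an immune response.

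The 9 genes had 24 probes of 50 bases. A probe was kept where its detection p was at most 0.02 on at least 1 array, which left 21, and all 9 genes kept at least 1. The brightest kept probe stood for a gene. By that probe 7 genes were detected on all 24 arrays, Bcl2l1 on 21 and Bak1 on 3. Some other probes read particular stretches of a transcript, and their sequences are shown because the results below differ between stretches. Positions count from the start of the transcript record to which the array's annotation ties the probe. The first pair reads the coding part of Bcl2l1 between its BH1 and BH2 motifs, a part that the short splice form Bcl-xS is known to skip. Capitals mark the conserved core of BH1 in the first sequence and the start of BH2 in the second.
Bcl2l1, bases 480 to 529: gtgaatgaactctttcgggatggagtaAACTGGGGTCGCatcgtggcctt
Bcl2l1, bases 599 to 648: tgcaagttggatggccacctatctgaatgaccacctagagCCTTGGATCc
The next pair belongs to one transcript record of Bcl2l11. Capitals mark the stretch that binds dynein light chain and is present in the longer Bim isoforms, and the second sequence is a probe specific to one transcript.
Bcl2l11, bases 544 to 593: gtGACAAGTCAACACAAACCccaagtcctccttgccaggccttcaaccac
Bcl2l11, bases 422 to 471: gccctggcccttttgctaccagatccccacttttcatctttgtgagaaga
The only Bax probe is shown because Bax is the one executioner that could be measured.
Bax, bases 554 to 603: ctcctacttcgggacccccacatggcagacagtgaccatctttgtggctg
The genome build of the probe coordinates is not named in the file, so coordinates are not printed.

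Between 8047 and 10689 probes were detected per array, and arrays of one group correlated at 0.949 to 0.989. The arrays differed in brightness before normalization. The 95th percentile of the deposited intensities lay at 199 to 358 on resting Naïve arrays and at 341 to 1010 on the others, so the levels below rest on the quantile normalization, which sets all arrays to one distribution. Without it the median gene in WT stimulated Naïve cells was 0.27 above resting Naïve cells on the log2 scale, and in resting Th2 cells 0.37. In BAF180-deficient cells these differences were 0.30 and 0.67. On Th2 stimulation the median gene moved by 0.08 in WT and by -0.27 in BAF180-deficient cells. This setting was added after seeing the data. For the members its values stand beside the calls that it changes, and the other gene lists below were not read in it. Pbrm1 was lower in BAF180-deficient cells in each state, by 1.01 to 1.86 on the log2 scale, and the lowest WT array lay above the highest BAF180-deficient array every time. The drop was smallest in resting Naïve cells, with an adjusted p of 0.121 by the limma test described below. In the other states the adjusted p was 0.00101 to 0.0141. All 7 CD4 T cell markers were detected on every array. The summed intensity of 7 Th2 markers was 298 to 474 in resting Naïve and 18700 to 21100 in stimulated Th2 cells. It was 1200 to 2370 in resting Th2 and 774 to 2650 in stimulated Naïve cells, which overlap. Gata3 averaged 9.60 and 8.67 in these states in WT cells. In WT stimulated Th2 cells Il4 averaged 14.02, and 4 of the 7 markers were detected on all 3 arrays. Ccr4, Il1rl1 and Maf were detected there on 0, 1 and 1 of 3 arrays. The activation markers did not follow the labels throughout. Their 5 kept genes summed to 4700 to 8960 in resting Naïve, 3090 to 4790 in stimulated Naïve, 449 to 687 in resting Th2 and 3180 to 4880 in stimulated Th2 cells, and the early response genes Egr1 (11.64 against 10.63) and Cd69 (11.87 against 10.44) were higher on resting than on stimulated Naïve WT arrays, on average. Egr2, in contrast, was 7.09 on resting and 9.32 on stimulated ones. Resting Naïve arrays also carried transcripts of other cells. Their 8 kept myeloid markers summed to between 2000 and 6850 in both genotypes, against 30.2 to 116 in the other states. Their B cell markers summed to between 5280 and 9200, against 175 to 1590, and their erythroid markers to between 299 and 12200, against 12.9 to 282. Cd8b1, a CD8 marker, was detected on every array, at 8.57 in resting Naïve and 7.98 in resting Th2 WT cells, while Eomes lay near the background. Among regulatory T cell markers Foxp3 (8.83 and 5.89) and Ikzf2 (7.41 and 4.86) were lower in resting Th2 than in resting Naïve WT cells. Ctla4 was 7.76 and 7.61, and Il2ra (5.34 and 8.21) and Tnfrsf18 (9.11 and 10.68) were higher. Such cells can express the family too, and the part of these and of the activation markers in the differences from resting Naïve cells was not tested. In these bulk samples fewer cells of a type and less RNA per cell cannot be told apart.

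**Figure D1:**
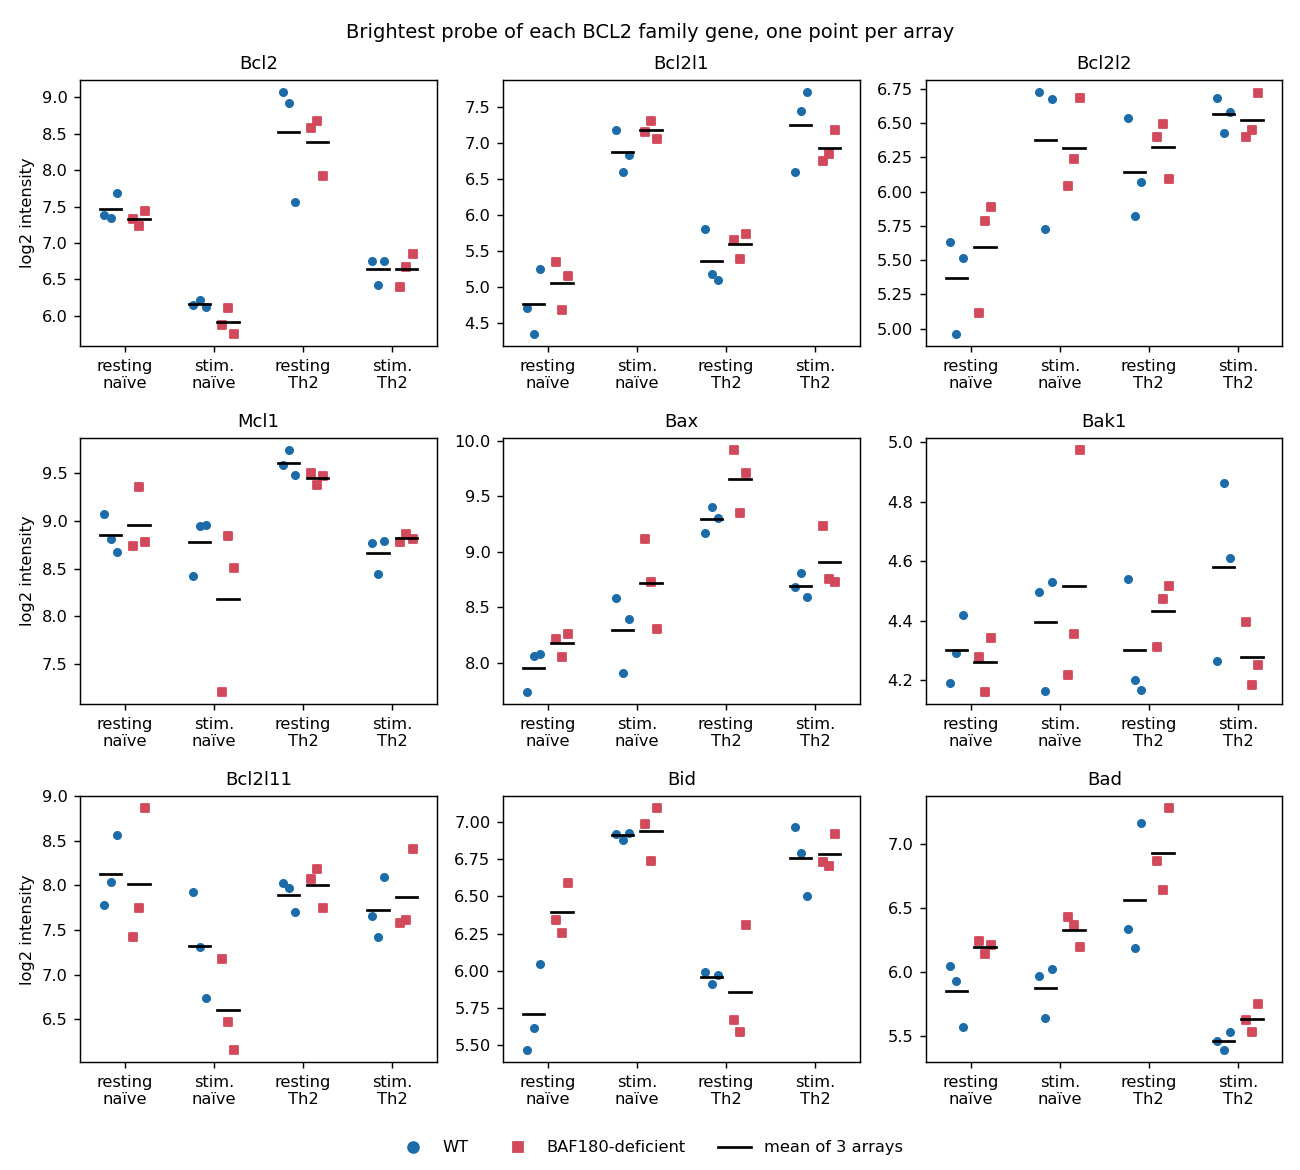
Normalized log2 intensity (vertical axis) of each member's brightest probe on all 24 arrays, by cell state (horizontal axis) and genotype, with points for the single arrays and a bar at each group's mean of 3. Bcl2 was lowest in stimulated Naïve cells and highest in resting Th2 cells, Bcl2l1 was high in both stimulated states, and Bak1 lay between 4.16 and 4.97 on every array, near the background.

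On stimulation of Naïve cells the anti-apoptotic genes Bcl2 and Bcl2l1 moved in opposite directions. In WT cells Bcl2 fell 2.48-fold and Bcl2l1, detected on 1 of 3 resting arrays, rose 4.27-fold, and Bcl2l2 and Bid also rose. The rises of Bcl2l1, Bcl2l2 and Bid held without quantile normalization, and the fall of Bcl2 did not (-0.39, adjusted p = 0.596). In WT cells 4 of the 9 members passed the test in this comparison, where 45.2% of all 10418 genes did, and in BAF180-deficient cells 7 passed against 43.4%. The latter count was 4 to 6 with 1 array left out (4 without resting Naïve BAF180-deficient replicate A or B) and 4 with no filter on dim probes, with only the compared arrays fitted and without quantile normalization. The test was limma's moderated test in a model of all 8 groups, at a Benjamini-Hochberg adjusted p below 0.05 over all kept probes. The median of the members was 0.10 in WT cells and that of all genes -0.01. The resting arrays of this comparison are those with myeloid sums of 2000 to 6850, against 40.3 to 116 after stimulation, and with the activation markers given above, whose part was not tested.

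Th2 cells at rest differed from resting Naïve cells mainly upward. In WT cells 5 of the 9 members rose, namely Bcl2, Bcl2l2, Mcl1, Bax and Bad, and none fell. Of all genes 35.5% passed the test, 17.9% upward and 17.6% downward. In BAF180-deficient cells Bcl2, Bcl2l2, Bax and Bad rose and Bid fell, against 35.7%. The median of the members was 0.71 in WT cells, beside 0.00 for all genes. The myeloid sums differed here as well, at 30.2 to 60.3 in resting Th2 cells, and their part was not tested. The WT count was 3 without resting Th2 WT replicate A or C or resting Naïve WT replicate B, and it was 2 when the groups compared were fitted alone.

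Stimulation of Th2 cells for 1.5 h lowered Bcl2, Mcl1, Bax and Bad and raised Bcl2l1 and Bid in WT cells, 6 of the 9 members where 28.5% of genes passed. In BAF180-deficient cells 5 members passed against 27%, the same genes but for Mcl1, which passed with only those groups fitted. Without quantile normalization these counts were 2 and 3. The median of the members was -0.17 in WT cells and that of all genes -0.01. Of the remaining WT comparisons, resting Th2 and stimulated Naïve cells differed in 6 members, against 23.6% of genes, and stimulated Th2 and resting Naïve cells in 5, against 49.4%. Both stimulated states differed in 0 members by the adjusted test, where 21.2% of genes passed, and 0 members had an unadjusted p below 0.05, by the brightest probes. Other probes of Bcl2 (at least 1.76-fold, adjusted p = 0.013), Bcl2l1 (0.45, adjusted p = 0.026, the probe reaching into BH2), Bcl2l2 and Bcl2l11 (1.45 for the dynein light chain stretch, adjusted p = 0.000664) passed there, all higher in Th2 cells. In BAF180-deficient cells 2 members passed in this pair, Bcl2l11 (1.27, adjusted p = 0.0127) and Bad (-0.70, adjusted p = 0.0171), against 21.5% of genes. The largest WT difference by the brightest probes was 0.48 for Bcl2, with a 95% interval of -0.09 to 1.05. Of the 54 WT comparisons of 9 members across 6 pairs of states, 26 passed, beside 33.9% of all gene comparisons in the same pairs, and 15 passed without quantile normalization.

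**Figure D2:**
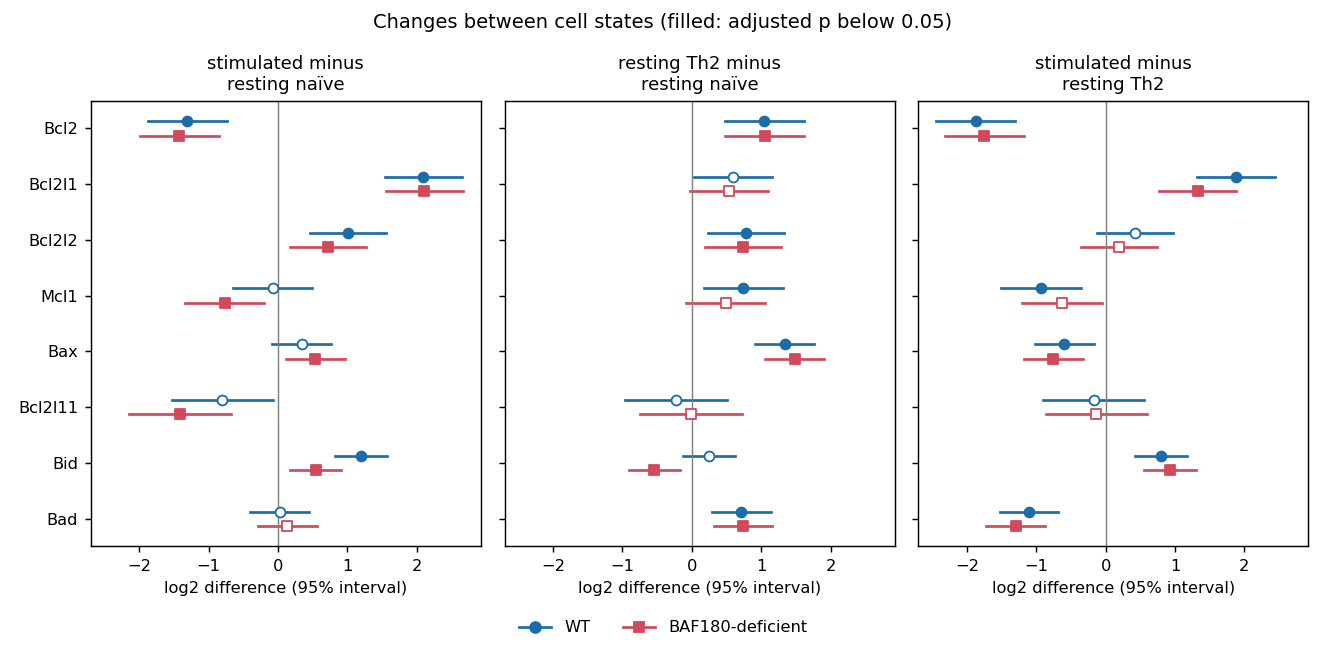
Log2 change of each member but Bak1 (rows) in 3 comparisons of states (panels), with the estimate and its 95% interval from limma for WT and BAF180-deficient cells. Filled points passed the adjusted test. Bcl2 and Bcl2l1 lay on opposite sides of 0 after both stimulations.

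Bcl2, the survival factor of resting T cells, passed the test in all 3 of these comparisons in both genotypes. In WT cells it read 7.38, 7.34 and 7.69 in resting Naïve, 6.15, 6.21 and 6.13 in stimulated Naïve, 9.07, 8.92 and 7.56 in resting Th2 and 6.75, 6.43 and 6.76 in stimulated Th2 cells, for replicates A, B and C. In BAF180-deficient cells the same groups read 7.33, 7.23 and 7.44, then 5.88, 6.11 and 5.75, then 8.57, 8.67 and 7.92, then 6.40, 6.67 and 6.84. Resting Th2 cells were highest and stimulated Naïve cells lowest in both genotypes, and replicate C was the lowest resting Th2 array in both. With that array WT resting Th2 cells overlapped resting Naïve cells. The change on Naïve stimulation was -1.31 ± 0.27 (SE) in WT (adjusted p = 0.000534) and -1.42 in BAF180-deficient cells (adjusted p = 0.000247). The change on Th2 stimulation was -1.87 in WT (adjusted p = 2.33e-05, a 3.66-fold fall) and -1.75 in BAF180-deficient cells (adjusted p = 6.04e-05). Resting Th2 cells exceeded resting Naïve cells by 1.05 in both genotypes (adjusted p = 0.00531 in WT and 0.00505 in BAF180-deficient cells). The WT rise did not pass when these groups alone were fitted (0.99, adjusted p = 0.0992). Without quantile normalization both falls of Bcl2 on Naïve stimulation were lost, at -0.39 in WT and -0.55 in BAF180-deficient cells (adjusted p of 0.596 and 0.409), while the median gene rose. The other 4 calls held. In WT cells the order was resting Th2, resting Naïve, stimulated Th2 and stimulated Naïve, and the last pair did not differ by limma's test (0.48, adjusted p = 0.257), although its arrays did not overlap.

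Bcl2 is the member with most probes, 8 on 2 transcript records, of which 7 were kept. In WT cells 3 of the 7 fell on Naïve stimulation (range -1.34 to 0.01), 5 rose in resting Th2 over resting Naïve cells (-0.05 to 1.93) and 3 fell on Th2 stimulation (-1.87 to -0.08). In BAF180-deficient cells these counts were 4, 3 and 4. No probe passed in the opposite direction. The probe that stayed near 0 in WT cells was detected on 1 of the 24 arrays.

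Bcl2l1 was low in resting cells and high in both stimulated states. Its brightest probe read 4.72, 4.35 and 5.26 in WT resting Naïve cells, detected on 1 of 3 arrays, and 7.18, 6.60 and 6.84 after stimulation. WT Th2 cells read 5.81, 5.19 and 5.11 at rest and 6.60, 7.44 and 7.71 after stimulation. BAF180-deficient cells read 5.36, 4.68 and 5.16 (detected on 2 of 3 arrays), then 7.16, 7.31 and 7.06, and as Th2 cells 5.66, 5.40 and 5.74, then 6.75, 6.85 and 7.17. Stimulated and resting arrays did not overlap in either cell type or genotype. The rise in Naïve cells was 2.10 ± 0.27 (SE) in WT (adjusted p = 2.16e-06) and 2.11 in BAF180-deficient cells (adjusted p = 2.08e-06, 4.32-fold). In Th2 cells it was 1.88 in WT (adjusted p = 1.75e-05, 3.68-fold) and 1.32 in BAF180-deficient cells (adjusted p = 0.000823, 2.5-fold). Resting Th2 cells were 0.59 above resting Naïve cells in WT (adjusted p = 0.0933), and 0.84 without resting Naïve WT replicate C, where the test was passed (adjusted p = 0.0252). In BAF180-deficient cells that difference was 0.53 (adjusted p = 0.131). It was 1.24 and passed without quantile normalization (adjusted p = 0.0488), where the median gene was 0.67 higher. Without quantile normalization the BAF180-deficient rise on Th2 stimulation was 0.83 and lost its call (adjusted p = 0.288), and the WT rise of the BH1 probe on Naïve stimulation was lost too (0.80, adjusted p = 0.0819). The other called rises of Bcl2l1 on stimulation held.

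The probes in the coding stretch between BH1 and BH2, shown above, moved the same way. Neither was detected in resting Naïve cells, so only lower bounds can be given there, set against the lowest signal that counts as detected. The probe reaching into BH2 rose at least 1.22-fold on Naïve stimulation in both genotypes and at least 1.98-fold on Th2 stimulation in WT cells. In BAF180-deficient Th2 cells, where 1 of 3 resting arrays detected it, it rose by 1.14 (adjusted p = 3.39e-06). The probe over BH1 rose at least 1.07-fold in WT and 1.14-fold in BAF180-deficient Naïve cells and at least 1.45-fold in WT Th2 cells, and was 0.42 higher in BAF180-deficient Th2 cells (adjusted p = 0.236). Its WT Th2 call was lost without stimulated Th2 WT replicate B (0.54, adjusted p = 0.121) or C (0.70, adjusted p = 0.0659) and with those groups fitted alone. Its call in BAF180-deficient Naïve cells was lost without stimulated Naïve replicate C (0.62, adjusted p = 0.0576). Both probes followed the brightest probe over the 24 arrays, with r of 0.865 and 0.855, as a description.

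Bcl2l2, a relative of Bcl-xL, was lowest in resting Naïve cells. WT arrays read 5.63, 4.96 and 5.52 in resting Naïve, 6.73, 5.73 and 6.68 in stimulated Naïve, 6.54, 5.82 and 6.07 in resting Th2 and 6.68, 6.43 and 6.58 in stimulated Th2 cells. BAF180-deficient arrays read 5.11, 5.78 and 5.89, then 6.04, 6.23 and 6.68, then 6.40, 6.49 and 6.09, then 6.40, 6.45 and 6.72. The resting Naïve arrays did not overlap any other state in either genotype. Naïve stimulation raised Bcl2l2 by 1.01 ± 0.26 (SE) in WT (adjusted p = 0.00362) and by 0.73 in BAF180-deficient cells (adjusted p = 0.0314). Resting Th2 cells exceeded resting Naïve cells by 0.78 in WT (adjusted p = 0.0269) and by 0.73 in BAF180-deficient cells (adjusted p = 0.0359). Its other kept probe passed in the same 4 comparisons. Th2 stimulation gave 0.42 in WT (adjusted p = 0.282) and 0.20 in BAF180-deficient cells (adjusted p = 0.681). The WT rise in resting Th2 cells was lost without resting Th2 WT replicate A or resting Naïve WT replicate B (adjusted p of 0.142 and 0.139). Both BAF180-deficient rises were lost without resting Naïve replicate A (adjusted p of 0.184 and 0.194), the Naïve one also without stimulated Naïve replicate B or C (0.0533 and 0.157) and the Th2 one without resting Th2 replicate A or B (0.0898 and 0.111). The WT order had resting Naïve cells last, and the other states did not differ by the brightest probe. By the other probe stimulated Th2 cells exceeded stimulated Naïve cells by 0.70 (adjusted p = 0.0257). Without quantile normalization the WT rise of Bcl2l2 in resting Th2 cells was lost (1.28, adjusted p = 0.0514).

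Mcl1, a short-lived anti-apoptotic protein that lymphocytes need, was highest in resting Th2 cells. WT arrays read 9.07, 8.81 and 8.68 in resting Naïve, 8.43, 8.95 and 8.95 in stimulated Naïve, 9.58, 9.74 and 9.47 in resting Th2 and 8.76, 8.44 and 8.79 in stimulated Th2 cells. BAF180-deficient arrays read 8.74, 9.35 and 8.78, then 7.21, 8.84 and 8.51, then 9.49, 9.37 and 9.47, then 8.78, 8.85 and 8.81. The 7.21 of stimulated Naïve replicate A is the lowest of all 24. WT Mcl1 fell by 0.93 ± 0.27 (SE) on Th2 stimulation (adjusted p = 0.0144, 1.91-fold) and was 0.74 higher in resting Th2 than in resting Naïve cells (adjusted p = 0.0411). In BAF180-deficient cells these differences were -0.63 (adjusted p = 0.104) and 0.49 (adjusted p = 0.18). The first was -0.62 and passed with only those groups fitted (adjusted p = 0.00519). Without quantile normalization the second was 1.84 and passed (adjusted p = 0.00598), where the median gene was 0.67 higher. The WT fall was lost without stimulated Th2 replicate B (adjusted p = 0.0651) or resting Th2 replicate B (0.0541). The WT rise was lost without any one of resting Th2 replicates A, B and C or resting Naïve replicates B and C (adjusted p of 0.0612 to 0.113). On Naïve stimulation Mcl1 changed by -0.08 in WT (adjusted p = 0.854) and by -0.77 in BAF180-deficient cells (adjusted p = 0.0289). The latter was -0.28 without stimulated Naïve replicate A (adjusted p = 0.26) and -0.57 without resting Naïve replicate B (adjusted p = 0.149). Without quantile normalization it turned to 0.30 (adjusted p = 0.7), where the median gene also moved by 0.30, and the WT Th2 fall of Mcl1 was lost (-0.57, adjusted p = 0.538).

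Of the executioners, Bax was highest in resting Th2 cells. WT arrays read 7.73, 8.06 and 8.08 in resting Naïve, 8.58, 7.91 and 8.40 in stimulated Naïve, 9.17, 9.41 and 9.31 in resting Th2 and 8.68, 8.81 and 8.59 in stimulated Th2 cells. BAF180-deficient arrays read 8.22, 8.05 and 8.26, then 9.11, 8.73 and 8.30, then 9.92, 9.35 and 9.71, then 9.24, 8.75 and 8.72. Resting Th2 arrays lay above the arrays of the other states in each genotype. They exceeded resting Naïve cells by 1.34 ± 0.20 (SE) in WT (adjusted p = 3.21e-05, 2.53-fold) and by 1.48 in BAF180-deficient cells (adjusted p = 9.53e-06, 2.8-fold). Bax then fell on Th2 stimulation by 0.60 in WT (adjusted p = 0.0322) and by 0.76 in BAF180-deficient cells (adjusted p = 0.00815). On Naïve stimulation it changed by 0.34 in WT (adjusted p = 0.192) and by 0.54 in BAF180-deficient cells (adjusted p = 0.038). The WT Th2 fall was lost without stimulated Th2 replicate A or C or resting Th2 replicate B or C (adjusted p of 0.0743 to 0.105), and the other Th2 fall without resting Th2 BAF180-deficient replicate A (0.0551). The Naïve rise in BAF180-deficient cells was lost without any one of the compared arrays but stimulated Naïve replicate C (adjusted p of 0.0525 to 0.207), and was 0.34 without stimulated Naïve replicate A. Without quantile normalization Bax rose on Naïve stimulation in both genotypes, by 1.36 and 1.62 (adjusted p of 0.0126 and 0.00401), and the WT Th2 fall was lost (-0.25, adjusted p = 0.773).

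Bak1, the other executioner, could not be followed. Its probe read 4.16 to 4.97 and was detected on 1 BAF180-deficient stimulated Naïve array and 2 WT stimulated Th2 arrays. No fold is given for it.

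Among the BH3-only genes Bcl2l11 gave different pictures by probe. Its brightest probe, at bases 4582 to 4631 of the record, read 7.78, 8.04 and 8.56 in WT resting Naïve, 7.92, 7.31 and 6.74 in stimulated Naïve, 8.02, 7.97 and 7.70 in resting Th2 and 7.65, 7.43 and 8.10 in stimulated Th2 cells. BAF180-deficient arrays read 7.42, 7.75 and 8.86, then 7.17, 6.48 and 6.15, then 8.08, 8.18 and 7.74, then 7.57, 7.61 and 8.41. Stimulated Naïve cells were lowest on average in both genotypes. The change on Naïve stimulation was -0.80 ± 0.35 (SE) in WT (adjusted p = 0.0703) and -1.41 in BAF180-deficient cells (adjusted p = 0.00259, 2.66-fold). The WT value was -1.10 and passed without stimulated Naïve WT replicate A (adjusted p = 0.0224), and the BAF180-deficient value was -0.44 as the mean of all 4 kept probes (adjusted p = 0.105). Without quantile normalization it was -0.45 and lost (adjusted p = 0.619), and the WT value of Bcl2l11 turned to 0.22. On Th2 stimulation this probe changed by -0.17 in WT (adjusted p = 0.82) and by -0.13 in BAF180-deficient cells (adjusted p = 0.865).

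The probe over the dynein light chain stretch behaved otherwise. It read 4.22, 4.35 and 4.64 in WT resting Naïve cells, where it was not detected, 4.80, 4.83 and 4.56 in stimulated Naïve, 4.88, 4.73 and 5.13 in resting Th2 and 6.09, 5.75 and 6.69 in stimulated Th2 cells. BAF180-deficient arrays read 4.71, 4.38 and 4.37, again not detected, then 4.45, 4.93 and 4.76, then 4.82, 4.79 and 5.19, then 5.89, 5.68 and 7.08. Only the stimulated Th2 arrays stood apart, and all 6 lay above all other arrays. Th2 stimulation raised this Bcl2l11 probe by 1.26 ± 0.28 (SE) in WT (adjusted p = 0.00144, 2.4-fold) and by 1.28 in BAF180-deficient cells (adjusted p = 0.0014, 2.44-fold). The latter was 0.85 without stimulated Th2 BAF180-deficient replicate C, with the test still passed (adjusted p = 0.00902). Without quantile normalization both Th2 rises lost their call, at 1.42 in WT and 0.95 in BAF180-deficient cells (adjusted p of 0.0652 and 0.189). Against resting Naïve cells the stimulated Th2 signal was at least 2.49-fold higher in WT and at least 2.65-fold higher in BAF180-deficient cells. Over the 24 arrays the probe had an r of 0.128 with the brightest one, as a description. The transcript-specific probe was detected on 3 arrays, 1 WT and 2 BAF180-deficient, all of stimulated Th2 cells, and changed by 0.21 and 0.30 on Th2 stimulation (adjusted p = 0.275 and 0.0985). The remaining kept probe, on another record, changed by -0.04 and -0.03.

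**Figure D3:**
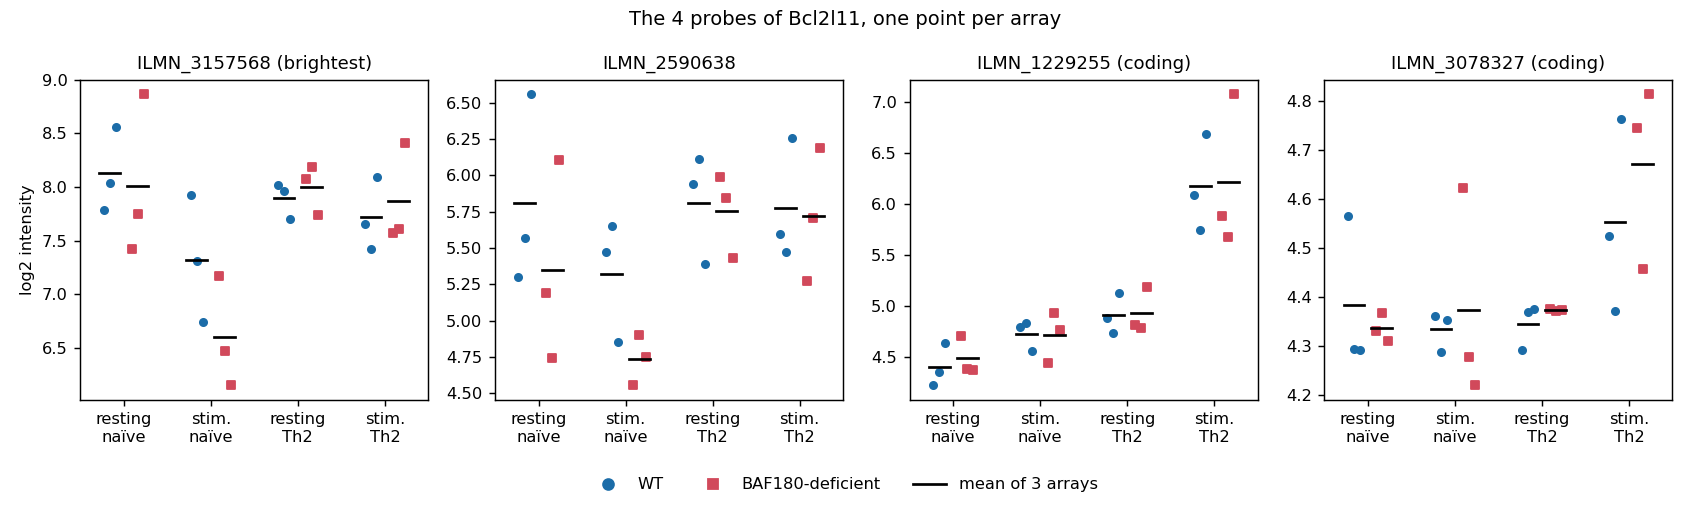
Normalized log2 intensity (vertical axis) of the 4 kept Bcl2l11 probes, one panel each, by cell state and genotype, with a point per array and a bar at each group's mean of 3. The probe at bases 544 to 593 is highest in stimulated Th2 cells, where its 6 arrays read 5.68 to 7.08, while the brightest probe is lowest in stimulated Naïve cells.

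Bad, a BH3-only protein that survival kinases hold inactive by phosphorylation, was highest in resting Th2 cells and lowest in stimulated Th2 cells. WT arrays read 6.05, 5.93 and 5.57 in resting Naïve, 5.97, 5.63 and 6.02 in stimulated Naïve, 6.33, 6.19 and 7.16 in resting Th2 and 5.46, 5.39 and 5.53 in stimulated Th2 cells. BAF180-deficient arrays read 6.24, 6.14 and 6.21, then 6.43, 6.37 and 6.20, then 6.87, 6.64 and 7.28, then 5.62, 5.53 and 5.75. Stimulated Th2 arrays lay below every other state within each genotype. Th2 stimulation lowered Bad by 1.10 ± 0.20 (SE) in WT (adjusted p = 0.000272, 2.15-fold) and by 1.30 in BAF180-deficient cells (adjusted p = 5.9e-05, 2.46-fold). Resting Th2 cells exceeded resting Naïve cells by 0.71 in WT (adjusted p = 0.00938) and by 0.73 in BAF180-deficient cells (adjusted p = 0.00759). Without resting Th2 replicate C of the genotype these were 0.41 (adjusted p = 0.0847) and 0.56 (adjusted p = 0.0599), so neither passed. Without quantile normalization the WT fall of Bad was -0.94 and lost its call (adjusted p = 0.108), and the BAF180-deficient one held. Naïve stimulation gave 0.03 in WT and 0.14 in BAF180-deficient cells.

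Bid, which caspase-8 cleaves to link death receptors to mitochondria, was high in both stimulated states. WT arrays read 5.47, 5.62 and 6.05 in resting Naïve, 6.92, 6.88 and 6.93 in stimulated Naïve, 5.99, 5.91 and 5.97 in resting Th2 and 6.97, 6.79 and 6.50 in stimulated Th2 cells. BAF180-deficient arrays read 6.34, 6.26 and 6.59, then 6.99, 6.74 and 7.09, then 5.67, 5.59 and 6.31, then 6.73, 6.70 and 6.92. Stimulated and resting arrays did not overlap in any of the 4 sets. Naïve stimulation raised Bid by 1.20 ± 0.18 (SE) in WT (adjusted p = 1.35e-05, 2.29-fold) and by 0.54 in BAF180-deficient cells (adjusted p = 0.0176), and Th2 stimulation by 0.80 in WT (adjusted p = 0.00173) and 0.93 in BAF180-deficient cells (adjusted p = 5e-04). Resting Th2 cells were 0.25 above resting Naïve cells in WT (adjusted p = 0.308) and fell 1.45-fold below them in BAF180-deficient cells (-0.54, adjusted p = 0.0228). The rise in BAF180-deficient Naïve cells was lost without resting Naïve replicate A or B or stimulated Naïve replicate C (adjusted p of 0.0512 to 0.0768). The fall in BAF180-deficient Th2 cells was lost without resting Th2 replicate A or B or resting Naïve replicate C (adjusted p of 0.0923 to 0.121), and was -0.16 with Z-score normalization (adjusted p = 0.374). Without quantile normalization it turned to 0.56 (adjusted p = 0.235), where the median gene moved by 0.67. Both rises of Bid on Th2 stimulation lost their call there, at 0.97 in WT and 0.40 in BAF180-deficient cells (adjusted p of 0.123 and 0.534). The median gene moved by 0.08 and -0.27 in these comparisons.

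Between the genotypes Bid in resting Naïve cells was the one difference called, and not under every setting. A genotype difference was called by criteria taken from the study's methods, namely a Z-ratio beyond 1.5, a false discovery rate below 0.3 and a p below 0.05. These were computed here with limma. The methods also ask for a positive mean signal, which was not tested, since the background correction leaves only positive values. The Z-ratio scales a difference by the SD that all probes' differences have. In resting Naïve cells 1 of the 9 members was called, against 0.758% of all genes. In stimulated Naïve cells and in Th2 cells at rest and stimulated, 0 members were called, where 0.115%, 0.106% and 0.096% of genes were, and the members with an unadjusted p below 0.05 numbered 2, 0 and 0. No exact permutation of 3 arrays against 3 can give a two-sided p below 0.1.

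The called member was Bid. BAF180-deficient resting Naïve arrays read 6.26 to 6.59 and WT arrays 5.47 to 6.05, without overlap, a difference of 0.68 ± 0.18 (SE) with a 95% interval of 0.31 to 1.05. Its unadjusted p was 0.000963 and its adjusted p 0.229, so it passed the 0.3 of the methods and not 0.05. Bid was not called without resting Naïve WT replicate A (0.56, adjusted p = 0.412) or B (0.64, adjusted p = 0.333) or BAF180-deficient replicate C (0.59, adjusted p = 0.378), nor with Z-score normalization, the kind of scaling the methods describe (0.39, adjusted p = 1), with only those groups fitted (0.54) or without quantile normalization (0.56). In the other states its differences were 0.03, -0.10 and 0.03. On these Naïve arrays the B cell markers summed to 5280 to 7530 in WT and 6530 to 9200 in BAF180-deficient cells, the myeloid ones to 2000 to 6850 and 2450 to 3610, and the erythroid ones to 299 to 12200 and 3710 to 5910. The regulatory T cell markers summed to 1050 to 1570 in WT and 1390 to 2060 in BAF180-deficient cells, with Ikzf2 at 7.41 ± 0.21 and 8.16 ± 0.28 (SD, n = 3) and Foxp3 at 8.83 and 9.27, and the NK markers to 324 to 537 and 504 to 645. Their part in the Bid difference was not tested.

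The genotype difference in a state change was tested directly. No member passed in 3 such tests by limma's adjusted p, in which 0.0096%, 0.0096% and 0% of genes passed for Naïve stimulation, resting Th2 against resting Naïve cells and Th2 stimulation. Before adjustment 1, 1 and 0 members had a p below 0.05. The member was Bid both times, with -0.65 for Naïve stimulation (adjusted p = 1) and -0.78 for resting Th2 against resting Naïve cells (adjusted p = 1), and both rest on the resting Naïve arrays. Bax, Bcl2l11 and Mcl1 passed on Naïve stimulation in BAF180-deficient and not in WT cells, and their changes were not shown to differ between the genotypes.

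**Figure D4:**
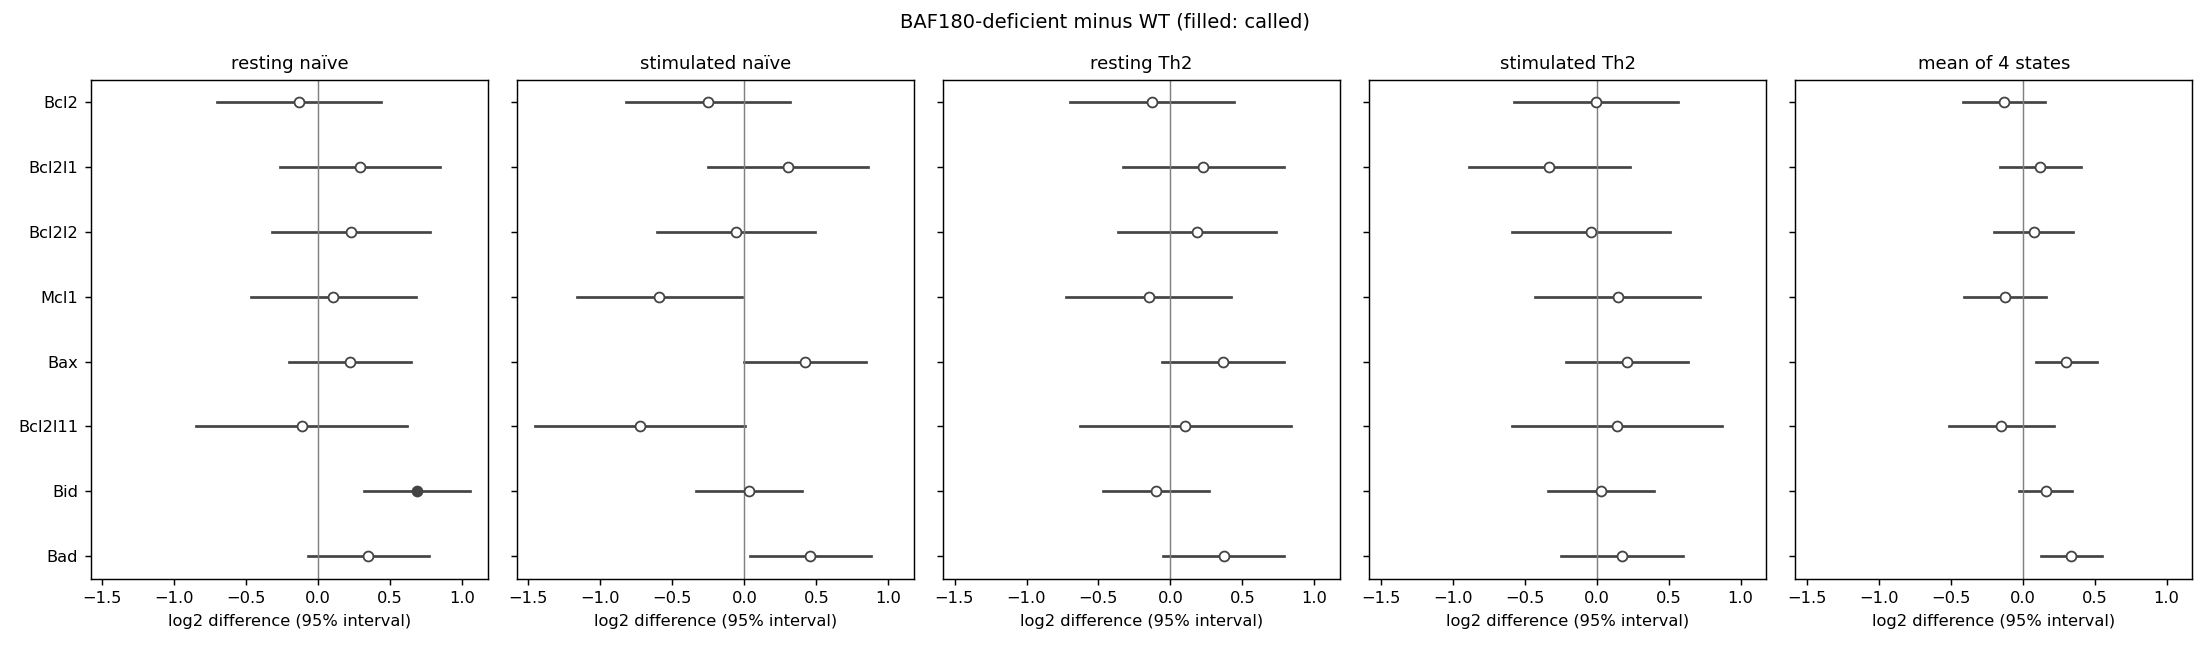
Log2 difference of BAF180-deficient and WT cells for each member but Bak1 (rows) in each cell state and over their mean (panels), with the 95% interval from limma. Bid in resting Naïve cells is the called value, at 0.68, and in stimulated Naïve cells the interval of Bad lies above 0 and that of Mcl1 below 0. Neither of these was called, and the Mcl1 difference was -0.10 without stimulated Naïve BAF180-deficient replicate A.

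Averaged over the 4 states, 0 members passed, against 0.374% of genes, and 2 had an unadjusted p below 0.05. Bad was higher in BAF180-deficient cells by 0.35 in resting Naïve, 0.46 in stimulated Naïve, 0.37 in resting Th2 and 0.18 in stimulated Th2 cells. Its arrays overlapped in resting Th2 cells and all but touched in stimulated Th2 cells, at 5.5304 (highest WT) and 5.5311 (lowest BAF180-deficient). They were apart in both Naïve states. How many genes separate in this way was not counted. The mean over states was 0.34 ± 0.10 (SE) (adjusted p = 0.216). Without resting Th2 WT replicate C it was 0.41 and passed (adjusted p = 0.0235), while with one mean per genotype and replicate letter the adjusted p was 0.7. Bax was higher by 0.22, 0.42, 0.37 and 0.21, with a mean of 0.30 ± 0.10 (SE) (adjusted p = 0.307).

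For the remaining members the mean over states is given with its 95% interval, which takes the arrays as independent. Opposite differences cancel in that mean, as for Bcl2l1 at 0.30 in stimulated Naïve and -0.33 in stimulated Th2 cells. The interval therefore does not bound the difference in a single state. The mean over states was -0.13 for Bcl2 (95% interval -0.42 to 0.15), 0.12 for Bcl2l1 (-0.16 to 0.40), 0.08 for Bcl2l2 (-0.20 to 0.35) and -0.12 for Mcl1 (-0.41 to 0.16). In stimulated Naïve cells Mcl1 was lower by 0.59 (adjusted p = 1), and the difference was -0.10 without the low BAF180-deficient replicate A. Bcl2l11 differed by -0.72 in the same cells (95% interval -1.45 to 0.01). None of the other probes of the members was called by genotype. The 7 kept Bcl2 probes ranged from -0.14 (the brightest) to 0.79 by genotype in resting Naïve cells. The probe at 0.79, at bases 6756 to 6805, read 5.75 to 6.45 on WT and 6.62 to 7.27 on BAF180-deficient arrays there. In stimulated Naïve cells it averaged 5.89 in WT and 5.67 in BAF180-deficient cells.

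Genes that act with the family were taken as 3 lists. The first held 19 other BCL2 family genes, of which 11 had a kept probe. Of these 2 rose and 3 fell on Naïve stimulation, 2 rose and 3 fell in resting Th2 over resting Naïve cells and 1 rose and 2 fell on Th2 stimulation in WT cells, with medians of -0.02, -0.10 and 0.05. These counts are 45.5%, 45.5% and 27.3% of the kept genes, beside 45.2%, 35.5% and 28.5% of all genes. Bbc3 (Puma), a BH3-only gene that p53 and FoxO factors induce, fell by 3.16 on Naïve stimulation (adjusted p = 2.65e-08) and by 2.99 on Th2 stimulation (adjusted p = 1.33e-07). Its WT arrays read 8.87 to 9.37 in resting Naïve, 5.39 to 6.40 in stimulated Naïve, 7.66 to 8.55 in resting Th2 and 4.73 to 5.56 in stimulated Th2 cells. Both stimulated states thus lay below both resting ones. Pmaip1 (Noxa), which binds Mcl1, fell by 1.20 on Naïve stimulation and was 1.27 lower in resting Th2 than in resting Naïve cells. Bcl2a1d, of the A1 group of anti-apoptotic genes, rose by 0.80 on Naïve stimulation and by 2.79 on Th2 stimulation (adjusted p = 6.58e-09), and A1 genes are near-identical copies that the probe may not tell apart.

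The second list held 21 genes of the apoptosome, the caspases and their inhibitors, of which 19 were kept. In WT cells 7 rose and 2 fell on Naïve stimulation, 8 rose and 3 fell in resting Th2 over resting Naïve cells and 1 rose and 6 fell on Th2 stimulation, with medians of 0.23, 0.48 and -0.30. These are 47.4%, 57.9% and 36.8% of the kept genes, beside 45.2%, 35.5% and 28.5% of all genes. Apaf1, the scaffold on which cytochrome c activates caspase-9, fell by 2.17 on Th2 stimulation (adjusted p = 1.8e-08), from 8.79 to 9.05 at rest to 6.70 to 6.89. Casp9 fell by 1.29 there and Birc5 (survivin), which dividing cells express, by 2.04. Birc5 had been 2.80 higher in resting Th2 than in resting Naïve cells. The effector caspase gene Casp6 rose on Naïve stimulation by 2.00 and on Th2 stimulation by 1.51.

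The third list held 22 genes that act on the members, of which 19 were kept. In WT cells 4 rose and 2 fell, 3 rose and 2 fell, and 4 rose and 3 fell in the same 3 comparisons, with medians of 0.16, 0.00 and 0.06. These are 31.6%, 26.3% and 36.8% of the kept genes, below the share of all genes in the first and second comparison. Il7r, the receptor through which IL-7 maintains Bcl2, fell 11.4-fold on Naïve stimulation (adjusted p = 2.64e-09), from 9.79 to 10.76 to 6.48 to 6.80. It fell by 1.23 on Th2 stimulation. Il2ra rose by 3.04 on Naïve stimulation. Stat5a rose by 3.01 and the kinases Pim3 and Pim1, which phosphorylate Bad, by 2.92 and 1.54 on Th2 stimulation. Dynll1, which encodes the dynein light chain that holds Bim, rose by 1.53 on Naïve stimulation. In no list was a gene called by genotype in any state or over their mean.

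The gene most like a member over the 24 arrays was sought among the 4707 genes whose brightest probe was detected on all of them. By Pearson's r, as a description, it was Dpysl2 for Bcl2 (0.929), Knop1 for Bcl2l1 (0.96), Ptpmt1 for Bcl2l2 (0.877), Casp1 for Bcl2l11 (0.829), Fkbp1a for Bax (0.883), Cln6 for Bad (0.902) and Timm17a for Bid (0.883). These arrays share 4 states, so the r mostly compares patterns over states.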

How the data were processed

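The authors deposited, per probe and array, the average bead intensity without normalization and a detection p-value against the negative controls, made with GenomeStudio 1.6.0 per the labels. The members and lists were chosen with earlier results of these data known. The neqc function of limma 3.58.1 in R 4.3.3 removed the background estimated from those p-values, added 16 and quantile normalized the log2 values. Kept were the 14246 of 25697 probes that reached a detection p of 0.02 or less on any of the 24 arrays, and a gene was read by its brightest kept probe. A limma model of 8 group means was fitted to all arrays (lmFit, eBayes), with Benjamini-Hochberg adjustment over kept probes, and was tested on simulated data. The positive mean signal that the methods ask for was not tested, since after the background correction it could remove no gene. The significance analysis of microarrays named in the methods was not run. Named genes were all members and, from each list, up to 3 called genes with the largest rise and fall per state comparison. Alternatives were normalization (with none between arrays added later), offset, filter, probe choice, blocks, arrays fitted and each array left out. The number of arrays limits the precision. Tables and figures were made with Python 3.11.15, pandas 2.3.3 and matplotlib 3.10.9. The gene most like Mcl1 is not reported here.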

Additional observations from a re-analysis of the deposited data

Results flagged for a closer look

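Chosen because all 3 arrays lay on opposite sides of the comparison group's mean in the 2 settings, 4 differences call for a closer look. Bid in resting Th2 minus resting Naïve cells was 0.25 in WT and -0.54 in BAF180-deficient cells, a difference of -0.78 (adjusted p = 1 by limma's interaction test). The genotype difference of Bcl2l1 was 0.30 in stimulated Naïve and -0.33 in stimulated Th2 cells, a difference of -0.63 that was not tested. It was 0.23 in resting Th2 cells, which is -0.56 away from stimulated Th2 cells (adjusted p = 1 by the interaction test). The genotype difference of Mcl1 was -0.15 in resting and 0.15 in stimulated Th2 cells, a difference of 0.30 (adjusted p = 1 by the interaction test). Groups of 3 were too small for a test of outlying arrays.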

How the results depend on the processing

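Of 953 alternative values for 102 single results, 879 kept direction and side of the threshold, and of 395 alternatives to the 42 called results 353 did and 2 reversed. With 1 array left out these were 694 of 768 and 211 of 252, with 0 called results reversed. The member called by genotype in resting Naïve cells went from 1 to 0 with Z-score normalization, with only the compared arrays fitted and with an adjusted p below 0.05 as the call. The WT count for resting Th2 against resting Naïve cells went from 5 to 3 with no filter on dim probes, to 2 with only the compared arrays and to 2 with resting Th2 replicates A and B only, a setting chosen after seeing the data. The BAF180-deficient count for Naïve stimulation went from 7 to 4 with no filter and with only the compared arrays. The genotype count over all states went from 0 to 1 (Bad, 0.37, adjusted p = 0.0328) with resting Th2 replicates A and B only. The mean of the 4 states per genotype and letter was also added after seeing the data, as was the fit without quantile normalization. That fit called 0 members by genotype in resting Naïve cells, 4 on BAF180-deficient Naïve stimulation, 2 (WT) and 3 (BAF180-deficient) on Th2 stimulation, and 15 pairs of states.

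With 1 array left out, the counts ranged from 4 to 5 (WT) and 4 to 6 (BAF180-deficient) for Naïve stimulation, 3 to 5 in both genotypes for resting Th2 against resting Naïve cells, 4 to 6 (WT) and 4 to 5 (BAF180-deficient) for Th2 stimulation, 0 to 1 for genotype in resting Naïve cells and over all states, and 21 to 26 for pairs of states. The 0 for resting Naïve cells came without WT replicate A or B or BAF180-deficient replicate C, the 1 over all states without resting Th2 WT replicate C.

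Without quantile normalization 2 called values reversed, Mcl1 on BAF180-deficient Naïve stimulation (0.30) and Bid in BAF180-deficient resting Th2 over resting Naïve cells (0.56). The other reversed values had not been called. By genotype in that fit these were Bcl2l11 in resting Naïve (0.021), Bcl2l2 in stimulated Naïve (0.022), Bcl2, Bid and Mcl1 in resting Th2 (0.43, 0.29 and 0.42) and Bad, Bax, Bcl2l11, Bid and Mcl1 in stimulated Th2 cells (-0.076, -0.17, -0.22, -0.28 and -0.23). Between states they were Mcl1 and Bcl2l11 on WT Naïve stimulation (1.01 and 0.22), Bcl2l11 in resting Th2 over resting Naïve cells (WT 0.70, BAF180-deficient 1.32) and on WT Th2 stimulation (0.11), and Bcl2l2 on BAF180-deficient Th2 stimulation (-0.34). With Z-score normalization these were Bid by genotype in stimulated Th2 cells (-0.037), Mcl1 on WT Naïve stimulation (0.033) and Bcl2l11 in BAF180-deficient resting Th2 over resting Naïve cells (0.20). With the mean of all kept probes they were Bcl2 by genotype in resting Naïve (0.22) and Bcl2l2 in stimulated Naïve cells (0.040), and Bcl2l11 in resting Th2 over resting Naïve cells (WT 0.062, BAF180-deficient 0.22) and on Th2 stimulation (WT 0.32, BAF180-deficient 0.35). With resting Th2 replicates A and B only it was Bcl2l11 in BAF180-deficient resting Th2 over resting Naïve cells (0.12). The cause was not tested.

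Leaving out 1 array turned the sign of some uncalled values. By genotype, Bcl2 ranged from -0.61 to 0.15 in resting and -0.12 to 0.11 in stimulated Th2 cells, Bcl2l11 from -0.54 to 0.18 in resting Naïve and -0.13 to 0.33 in stimulated Th2 cells, and Bcl2l2 from -0.38 to 0.12 in stimulated Naïve cells, -0.14 to 0.022 in stimulated Th2 cells and -0.0035 to 0.14 over all states. Bid ranged from -0.33 to 0.032 in resting Th2, -0.046 to 0.13 in stimulated Naïve and -0.096 to 0.14 in stimulated Th2 cells, and Mcl1 from -0.095 to 0.21 in resting Naïve cells. On WT Naïve stimulation Bad ranged from -0.12 to 0.14 and Mcl1 from -0.17 to 0.097. In BAF180-deficient cells Bcl2l11 ranged from -0.31 to 0.42 in resting Th2 over resting Naïve cells and from -0.41 to 0.012 on Th2 stimulation.

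The methods describe mice and RNAs in pairs, but no source used here ties a letter to a pair. Deviations of same-letter WT and BAF180-deficient arrays correlated at 0.30 for A, 0.14 for B and 0.52 for C pooled over states, and at -0.0026 to 0.66 within states (12 pairs, median 0.25, 2 at most 0.1). With the letter as a replicate block, or for comparisons of states each genotype and letter as a block, no call of a single result changed, 26 pairs of states still passed, and the Bid difference in resting Naïve cells was still called. The chip as a block was not run, since the columns name no chip. Signals near background limit Bak1, Bcl2l1 at rest and the coding probes.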
